A study of Oryza sativa with 6 samples.

Results

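The jasmonate biosynthesis genes described here are 5 loci of rice (Oryza sativa, cultivar Kitaake): AOS1 (Os03g0767000), AOS2 (Os03g0225900), AOC (Os03g0438100), OPR7 (Os08g0459600) and JAR1 (Os05g0586200). They were chosen by locus identifier, as named enzymes of one pathway, from the 37863 loci of the count table, and all 5 passed the filter on low counts that left 24615 loci for testing. Root tips of rice grown in boxes with the floating fern Azolla filiculoides (co-cultivated) were compared with root tips of rice grown alone (control), 3 RNA-seq libraries in each group, all taken 15 days after transplanting (DAT). Boxes of 4 plants stood in hydroponic solution, and the control boxes had a covered surface, so the cover and the fern cannot be told apart as differences between the groups. Per the labels the 3 samples of a group are biological replicates, and whether a library pools the plants of a box is not stated. Root markers were present in every library: the silicon transporter genes LSI1 and LSI2 and the regulators SCR1 and QHB summed to 1407 to 2603 CPM (each count as a share of its library's total, scaled between libraries) in the co-cultivated group and 751 to 1201 CPM in the control group. LSI1 and LSI2 made up nearly all of these sums: LSI1 averaged 896 ± 268 CPM in the co-cultivated and 425 ± 145 CPM in the control group, and LSI2 1218 ± 366 CPM in the co-cultivated and 615 ± 114 CPM in the control group (SD, n = 3 each). SCR1 and QHB overlapped between the groups. The leaf genes RBCS-C, CAB1R and CAB2R summed to 1.77 to 20.4 CPM in the co-cultivated group and 8.60 to 21.0 CPM in the control group, and none of these 7 markers was at 0 in every library; the part of these markers in the results on the 5 genes was not tested.

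Jasmonate is a lipid-derived hormone that plants make on wounding and attack and that also restrains root growth. Its synthesis starts in the plastid, where a lipoxygenase oxygenates a polyunsaturated fatty acid. Allene oxide synthase (AOS1 and AOS2) turns the product into an unstable epoxide, and allene oxide cyclase (AOC) closes the ring to give 12-oxo-phytodienoic acid. OPR7 reduces this intermediate in the peroxisome, where the side chain is then shortened by beta-oxidation. JAR1, a member of the GH3 family, couples jasmonic acid to isoleucine, and this conjugate is the form that the COI1 receptors bind together with JAZ repressors.

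All 5 genes had higher mean levels in co-cultivated than in control root tips, by 1.282-fold for OPR7 to 2.20-fold for AOS2. None of the 5 was called higher by edgeR at an adjusted p under 0.05 over all 24615 loci, a call that 1.46% of all loci received (2.63% in either direction). At an unadjusted p under 0.05, 4 of the 5 were higher (AOS1, AOC, OPR7 and JAR1), against 10.2% of all loci. DESeq2 called AOC alone, with 5.83% of loci called higher, and limma-voom called 0 of the 5, with 1.26% called higher. By library, AOC and OPR7 were higher in every co-cultivated library than in any control library, as were 12.4% of all loci. The reverse held for 15.3% of all loci. AOS1, AOS2 and JAR1 were high in co-cultivated replicates 1 and 3 and not in replicate 2. As the libraries are of whole root tips, more cells of a type and more RNA per cell cannot be told apart in any of these values.

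**Figure D1:**
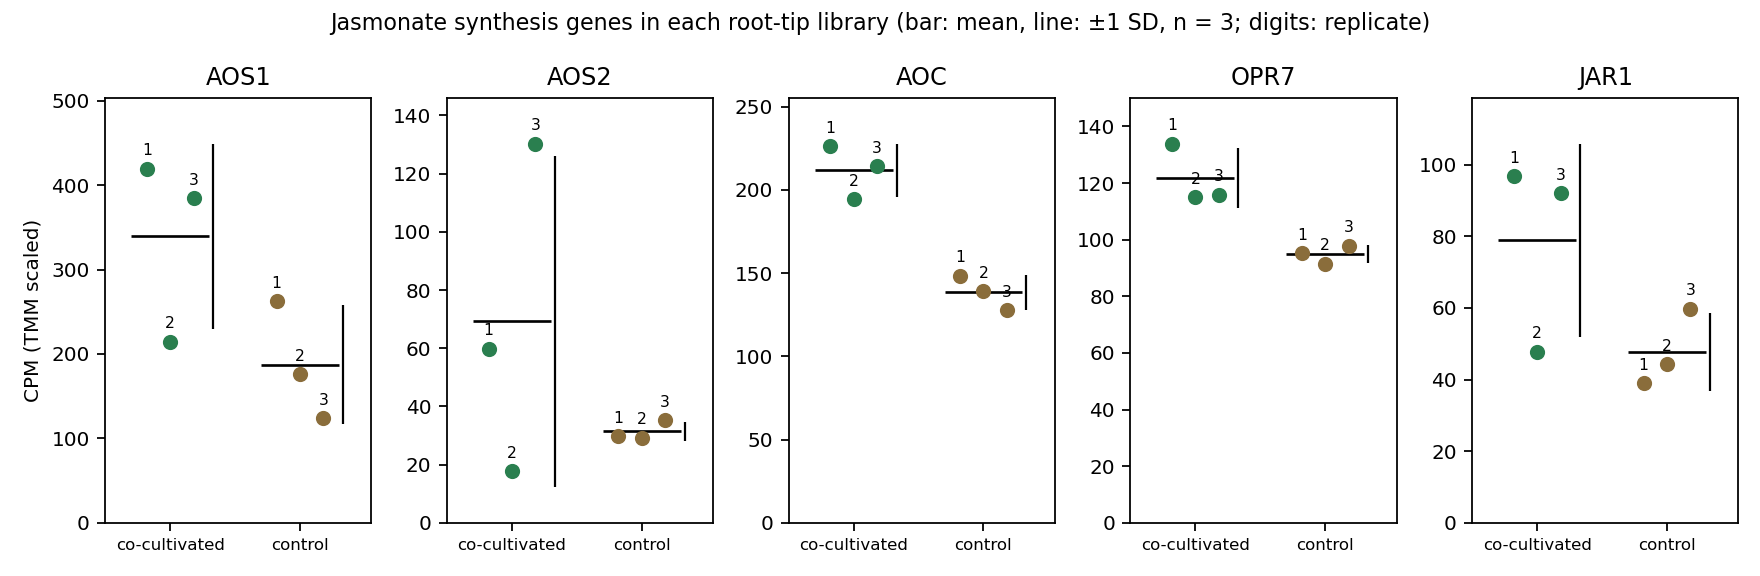
Level of each jasmonate synthesis gene in CPM (vertical axis, from 0, a scale of its own for each gene) in the 3 co-cultivated and the 3 control libraries; each point is a library, numbered by replicate, the horizontal bar is the mean and the vertical line 1 SD to each side. AOC and OPR7 do not overlap between the groups, whereas co-cultivated replicate 2 lies among the control libraries for AOS1 and JAR1 and below them, at 17.7 CPM, for AOS2.

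The 2 allene oxide synthase genes catalyse the same step. AOS1 stood at 419.5, 214.5 and 385 CPM in co-cultivated replicates 1, 2 and 3, against 263, 176 and 124 CPM in control replicates 1, 2 and 3. Co-cultivated replicates 1 and 3 lay above every control library, and co-cultivated replicate 2 lay below control replicate 1, so the groups overlapped. The means were 339.5 ± 109.6 CPM in the co-cultivated group and 187 ± 70.3 CPM in the control group (SD, n = 3 each), which gave 0.86 ± 0.35 (SE) on the log2 scale with an edgeR adjusted p of 0.224. AOS1 was the most uneven of the 5 genes within the control group, where control replicate 1 was 2.13-fold above control replicate 3.

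AOS2 stood at 59.8, 17.7 and 130.3 CPM in the co-cultivated libraries, against 29.8, 29.3 and 35.3 CPM in the control libraries. Its highest and its lowest library were both co-cultivated: replicate 3 was 7.37-fold and replicate 1 was 3.38-fold above replicate 2, and replicate 2 was below all 3 control libraries. The means were 69.3 ± 56.9 CPM in the co-cultivated group and 31.5 ± 3.34 CPM in the control group (SD, n = 3 each), and the log2 fold change of 1.14 ± 0.60 had a 95% interval of −0.27 to 2.55 (edgeR adjusted p = 0.333). AOS2 thus had the largest fold change of the 5 and the largest error. Leaving out co-cultivated replicate 3 put it at 0.29 and leaving out replicate 2 at 1.595, and limma-voom with all libraries put it at 0.72 (limma-voom adjusted p = 0.574).

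The ratio of AOS1 to AOS2 counts also varied from library to library. Because the lengths of both genes cancel, it is given as the log2 ratio minus its mean over the 6 libraries. It stood at 0.225, 1.02 and −1.02 in co-cultivated replicates 1, 2 and 3, against 0.56, 0.002 and −0.78 in control replicates 1, 2 and 3. The ratio thus spanned 4.11-fold within the co-cultivated group and 2.52-fold within the control group. The group means, 0.07 ± 1.03 in the co-cultivated and −0.07 ± 0.67 in the control group (SD, n = 3 each), differed by less than either spread.

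AOC, the cyclase that follows the synthases, stood at 226, 194 and 214 CPM in the co-cultivated libraries, against 148, 139 and 128 CPM in the control libraries. Every co-cultivated library exceeded every control library, as for 12.4% of all loci tested. The means were 212 ± 16.0 CPM in the co-cultivated and 138 ± 10.4 CPM in the control group (SD, n = 3 each), a log2 fold change of 0.61 ± 0.14 with a 95% interval of 0.28 to 0.95 and an edgeR adjusted p of 0.0730. This was the smallest p of the 5 genes. DESeq2 gave 0.63 with a DESeq2 adjusted p of 0.00219, and the other alternatives that kept all 6 libraries gave adjusted p of 0.0693 to 0.0899.

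OPR7 encodes the reductase of the OPR family that acts in rice jasmonate synthesis. It stood at 134, 115 and 116 CPM in the co-cultivated libraries, against 95.2, 91.5 and 97.9 CPM in the control libraries. The groups did not overlap, and the 3 control libraries differed from one another by at most 1.07-fold. With means of 122 ± 10.6 CPM in the co-cultivated and 94.9 ± 3.22 CPM in the control group (SD, n = 3 each), the log2 fold change of 0.36 ± 0.13 was the smallest of the 5 (95% interval 0.05 to 0.67, edgeR adjusted p = 0.188).

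JAR1 makes the active conjugate at the end of the route. It stood at 96.8, 47.8 and 92.0 CPM in the co-cultivated libraries, against 39.0, 44.2 and 59.8 CPM in the control libraries. Both replicates 1 and 3 of the co-cultivated group were above every control library, and its replicate 2 was below control replicate 3. The means were 78.9 ± 27.0 CPM in the co-cultivated and 47.7 ± 10.8 CPM in the control group (SD, n = 3 each), or 0.73 ± 0.30 on the log2 scale (edgeR adjusted p = 0.225). Within the control group the order differed from that of AOS1: control replicate 3 was the highest library for JAR1 and the lowest for AOS1.

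**Figure D2:**
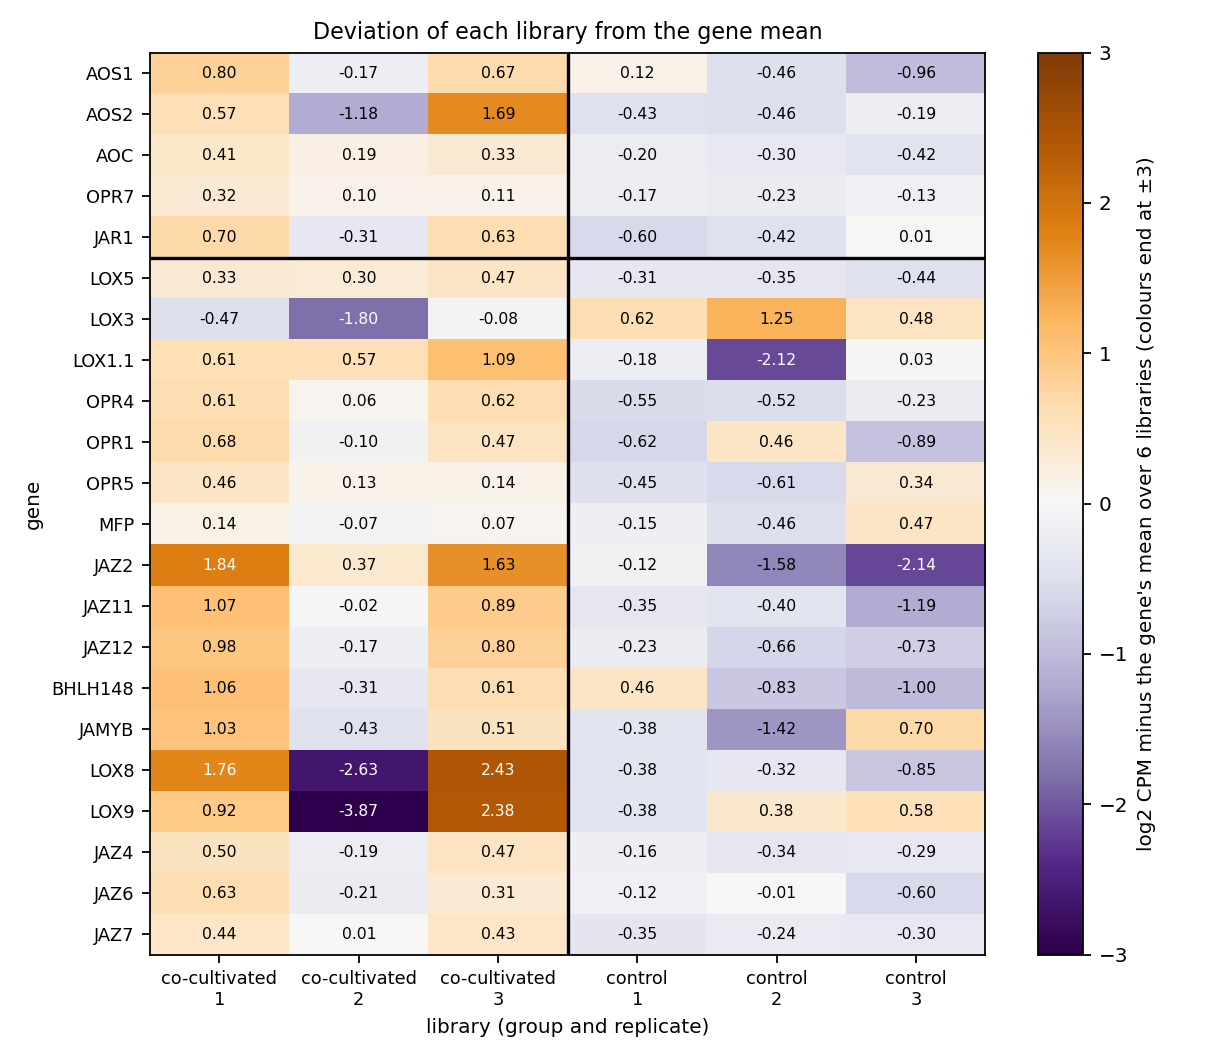
Deviation of each library (columns, 3 co-cultivated then 3 control) from the gene's mean over the 6 libraries, in log2 CPM (colour and printed value). The 5 synthesis genes are above the line, and other genes of the jasmonate pathway or its enzyme families are below it. Co-cultivated replicate 2 is at −1.18 for AOS2 and −0.31 for JAR1, between values of 0.57 to 1.69 in co-cultivated replicates 1 and 3, but at 0.19 for AOC and 0.10 for OPR7.

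The mean log2 CPM over the 5 genes came to 7.22, 6.39 and 7.35 for co-cultivated replicates 1, 2 and 3, against 6.40, 6.29 and 6.32 in control replicates 1, 2 and 3. Co-cultivated replicate 2 therefore lay within the range of the control libraries on this average, and the other 2 co-cultivated libraries lay above it. This placement did not hold for each gene. In co-cultivated replicate 2, AOS2 was the farthest below its own mean over the 6 libraries, at −1.18 in log2 CPM. AOC and OPR7 were above theirs there, at 0.19 and 0.10, and above every control library. The 5 genes together took 0.0901%, 0.0583% and 0.0954% of all counts in the co-cultivated libraries, against 0.0586%, 0.0484% and 0.0444% in the control libraries. AOS1, AOS2 and JAR1 (3 of 5) had both co-cultivated replicates 1 and 3 above every control library and replicate 2 below the highest control library, a pattern held by 5.3% of all loci. The same pattern with replicate 1 or replicate 3 as the low library was held by 2.44% and 4.21% of loci. All 5 genes were lowest in replicate 2 among the co-cultivated libraries, as were 36.1% of all loci. Of the 5, 3 were at least 1.5-fold below both other co-cultivated libraries there, as were 8.62% of all loci. The share of loci that low in replicate 1 or in replicate 3 was 3.23% and 4.56%. These library differences were known when the genes were chosen and are given as a description. Total counts of the co-cultivated libraries were 23477086 for replicate 1, 25120456 for replicate 2 and 24896440 for replicate 3, and the control libraries held 21551508 to 23703813.

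Across the co-cultivated libraries the coefficient of variation was 7.58% for AOC and 8.74% for OPR7, below the median of 13.9% over the 19672 loci whose mean log2 CPM was 1 or more. It was 32.3% for AOS1, 34.2% for JAR1 and 82.1% for AOS2, and 0.585% of those loci were more variable than AOS2. Across the control libraries it was 3.40% for OPR7, 7.51% for AOC, 10.6% for AOS2, 22.7% for JAR1 and 37.5% for AOS1, against a median of 19.7%. Counting error was at most 4.77%, reached at the lowest count of the set (439 for AOS2 in co-cultivated replicate 2). The counts of all 5 genes were whole to within 1e-06. As the counter is not given, whole counts do not show whether reads were shared with related loci. On the measure of likeness used here, the mean absolute difference of centred log2 CPM over the 6 libraries, AOC and OPR7 were the closest pair at 0.13 and AOS2 and OPR7 the farthest at 0.61, with AOS1 and AOS2 at 0.60.

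**Figure D3:**
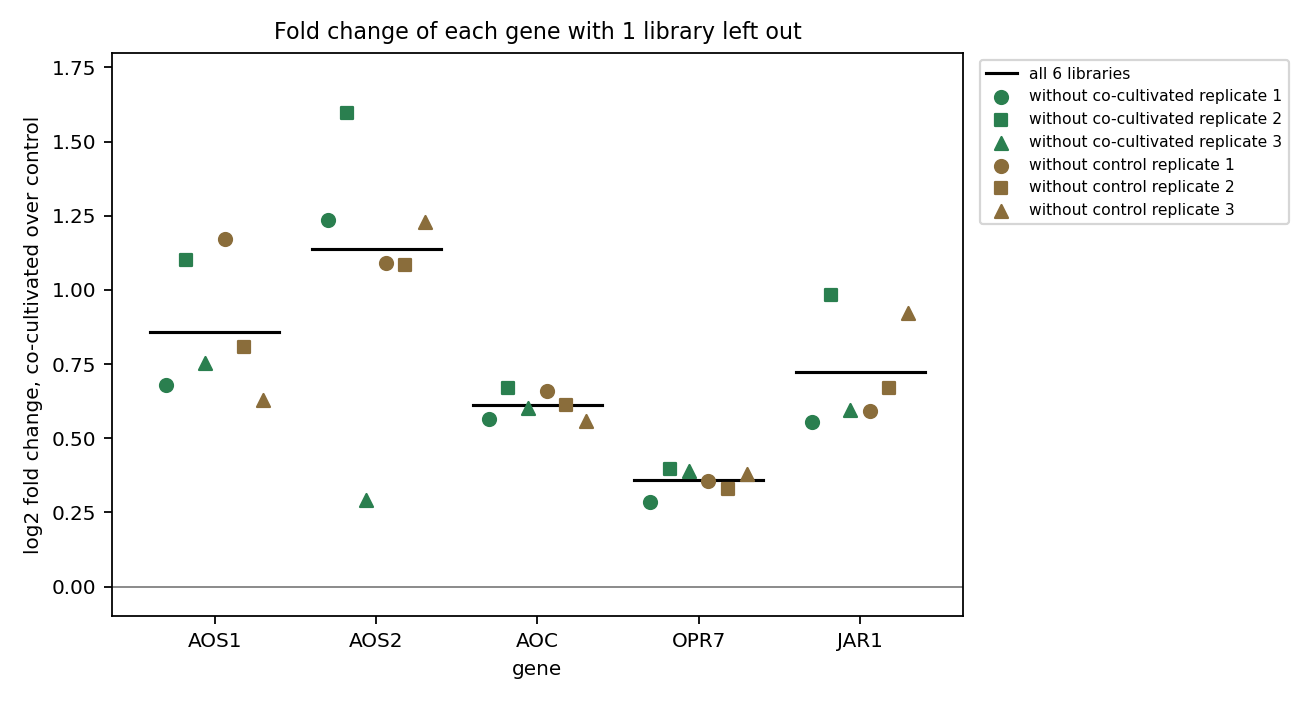
Log2 fold change of each gene, co-cultivated over control (vertical axis), with all 6 libraries (black bar) and with each library left out (green for a co-cultivated and brown for a control library; shape gives the replicate). AOC stays between 0.56 and 0.67 and OPR7 between 0.29 and 0.40, while AOS2 runs from 0.29 to 1.595.

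The sign of the fold change was positive for all 5 genes in each of the 6 fits without 1 library, and 0 of the 5 were called by edgeR in any of them. Without co-cultivated replicate 2, the log2 fold changes were 1.101 for AOS1, 1.595 for AOS2, 0.67 for AOC, 0.40 for OPR7 and 0.98 for JAR1, with edgeR adjusted p of 0.172, 0.0789, 0.1201, 0.282 and 0.0932; 0.9% of loci were called higher in that fit. Leaving out a control library also moved AOS1, to 1.17 without control replicate 1 and 0.63 without control replicate 3. For JAR1 the value was 0.59 without control replicate 1 and 0.92 without control replicate 3.

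The other pathway genes, as they are called here, came from 5 lists with 35 genes, of which 33 were tested. The lists include relatives of the synthesis enzymes, and not every listed lipoxygenase or OPR gene is known to act in jasmonate synthesis. The counts below therefore cover more than the route itself. By edgeR, 1 was called higher and 0 lower, against 1.46% and 1.17% of all loci. At an unadjusted p under 0.05, 8 were higher and 3 lower, against 10.2% of all loci in each direction, so the lower count was near that share. DESeq2 called 6 of the 33 higher and 1 lower, against 5.83% and 3.72% of all loci, and limma-voom 1 higher and 0 lower, against 1.26% and 1.02%. Of the 33, 25 had a positive fold change (75.8%, against 47.3% of all loci), and the median log2 fold change was 0.47, against −0.03 over all loci. The lists were chosen with earlier results of these data known, so the library counts that follow are a description. Co-cultivated replicate 2 was the lowest co-cultivated library for 28 of the 33 and for 36.1% of all loci. In 11 of the 33 co-cultivated replicates 1 and 3 were above every control library and replicate 2 was not, against 5.3% of all loci. In 8 of the 33 every co-cultivated library was above every control library, against 12.4% of all loci. LOX3 and COI1A had every co-cultivated library below every control library, as did 15.3% of all loci.

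**Figure D4:**
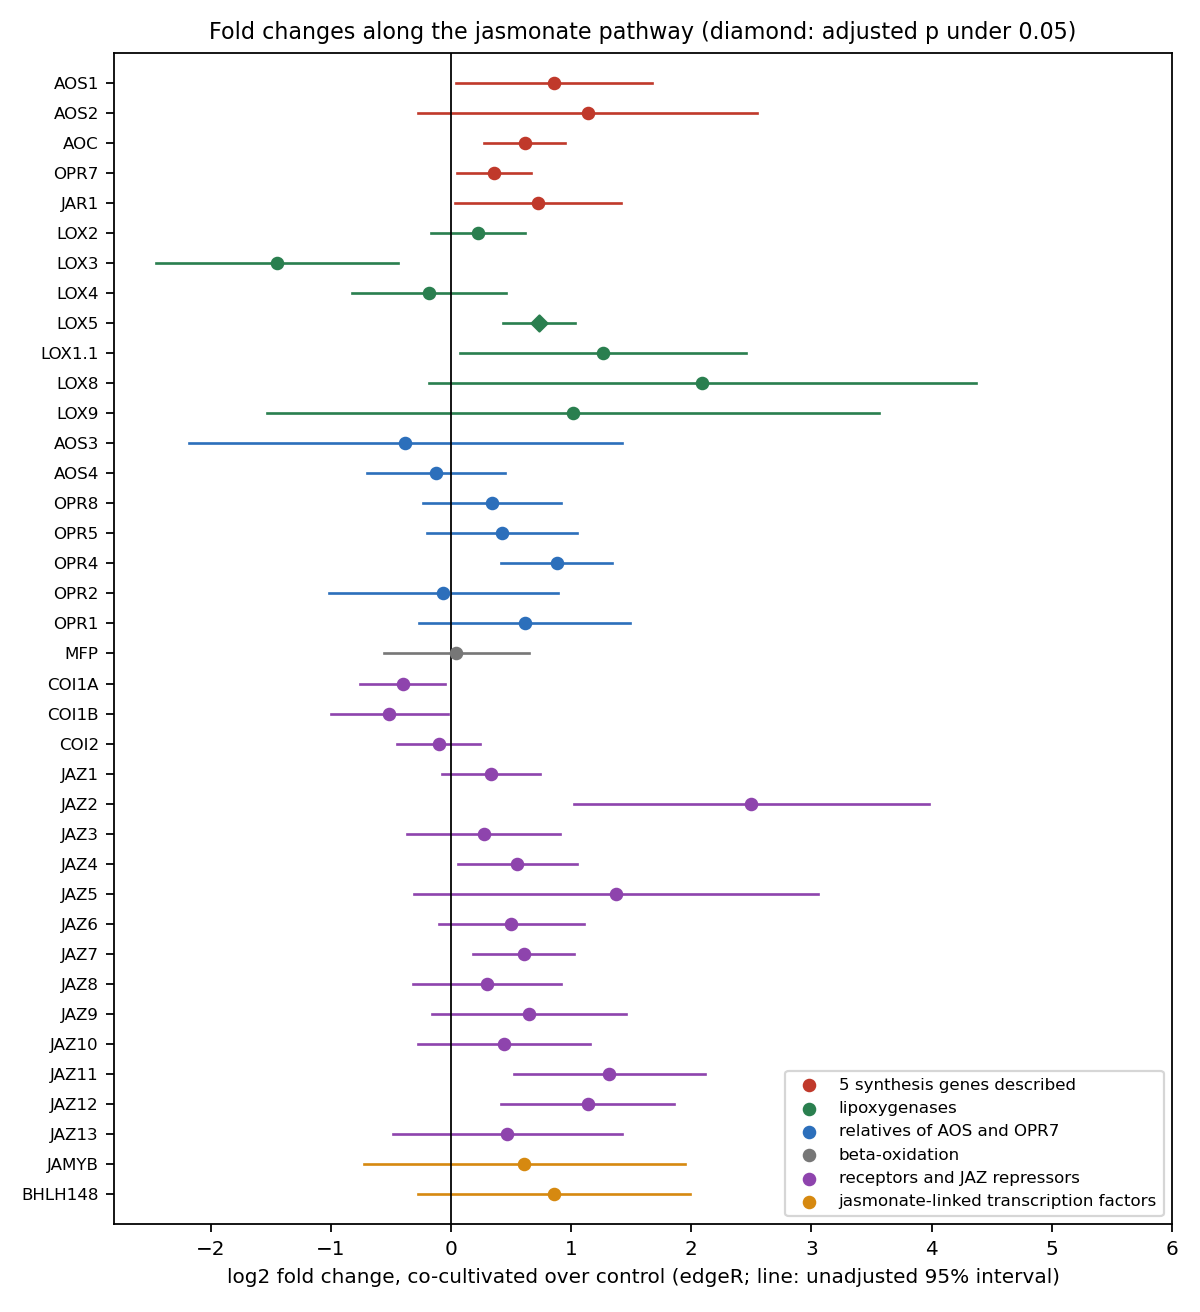
Log2 fold change, co-cultivated over control (horizontal axis, edgeR), of the 5 synthesis genes and 33 other pathway genes, with unadjusted 95% intervals; a diamond marks an adjusted p under 0.05. LOX5 at 0.73 is the single diamond, and the intervals of LOX8 and LOX9 are the widest of the lipoxygenases.

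Lipoxygenases open the route, although only some members of the family act in jasmonate synthesis. Of 7 tested, 1 was called higher by edgeR and 0 lower, against 1.46% and 1.17% of all loci. The gene called was LOX5 (Os03g0700700), which entered the list after the count table was opened. LOX5 stood at 118, 115 and 129 CPM in the co-cultivated libraries, against 75.2, 73.5 and 68.8 CPM in the control libraries (log2 fold change 0.73 ± 0.13, edgeR adjusted p = 0.0337). Unlike AOS1 and JAR1, LOX5 was as high in co-cultivated replicate 2 as in replicate 1. The call did not hold under a replicate block, where edgeR gave an adjusted p of 0.0567. It held without control replicate 2, and in the other 5 fits that leave out a library it did not (edgeR adjusted p up to 0.141). The log2 fold change itself stayed between 0.68 and 0.77 over the 6 fits without 1 library. LOX3, which the gene table also names r9-LOX1, stood at 65.1, 25.8 and 85.2 CPM in the co-cultivated libraries, against 139, 215 and 126 CPM in the control libraries (log2 fold change −1.45 ± 0.43, edgeR adjusted p = 0.127). LOX1.1 stood at 571, 559 and 799 CPM in the co-cultivated libraries, against 331, 85.9 and 384 CPM in the control libraries (log2 fold change 1.27 ± 0.51, edgeR adjusted p = 0.217), with control replicate 2 apart from the rest.

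LOX8 and LOX9, neighbours on chromosome 8, varied most between the co-cultivated libraries. LOX8 stood at 21.99, 0.967 and 35.1 CPM in the co-cultivated libraries, against 4.93, 5.15 and 3.54 CPM in the control libraries. LOX9 stood at 11.2, 0.322 and 30.9 CPM in the co-cultivated libraries, against 4.49, 7.68 and 8.82 CPM in the control libraries. As with AOS2, co-cultivated replicate 2 was below every control library and replicate 3 above all others. The counts of LOX8 and LOX9 were not whole, so their reads may have been divided between them and each value is uncertain. Their edgeR adjusted p were 0.278 and 0.639. LOX8 and LOX9 were singled out after their values were seen. Counts that were not whole also occurred for LOX5 (2855.99 in co-cultivated replicate 2) and for the repressor gene JAZ4 (5470.99 in co-cultivated replicate 1).

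Among relatives of AOS and OPR7, 0 of 7 tested genes were called by edgeR, with 1 higher at an unadjusted p under 0.05 (10.2% of all loci), 1 called higher by DESeq2 (5.83%) and 0 called by limma-voom. OPR4 stood at 145, 98.6 and 146 CPM in the co-cultivated libraries, against 64.9, 66.2 and 80.7 CPM in the control libraries. Its groups did not overlap, and its log2 difference was 0.88 ± 0.20 (edgeR adjusted p = 0.0674). OPR1 and OPR5 overlapped between the groups, at 0.61 ± 0.38 and 0.43 ± 0.27 (edgeR adjusted p = 0.402 and 0.415). MFP, a multifunctional protein gene of beta-oxidation, stood at 527, 454 and 501 CPM in the co-cultivated libraries, against 429, 348 and 661 CPM in the control libraries (log2 fold change 0.04 ± 0.26, edgeR adjusted p = 0.943).

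Of the 16 receptor and JAZ repressor genes, 0 were called by edgeR and limma-voom and 4 higher by DESeq2, against 5.83% of all loci. At an unadjusted edgeR p under 0.05, 5 of the 16 were higher and 2 lower, against 10.2% of all loci in each direction. JAZ2 stood at 9.2, 3.3 and 7.9 CPM in the co-cultivated libraries, against 2.3, 0.78 and 0.51 CPM in the control libraries. Its fold change thus rests on low and uneven control values, with a count of 12 in control replicate 3. On the log2 scale JAZ2 was at 2.50 ± 0.63 (edgeR adjusted p = 0.0875), JAZ11 at 1.32 (0.0927) and JAZ12 at 1.14 (0.103). The receptor genes COI1A, COI1B and COI2 were at −0.40, −0.51 and −0.10 on that scale (edgeR adjusted p = 0.194, 0.225 and 0.744). Of the transcription factor genes, JAMYB was at 0.61 ± 0.57 and BHLH148 at 0.86 ± 0.48 (edgeR adjusted p = 0.591 and 0.360). BHLH148 stood at 677, 263 and 498 CPM in the co-cultivated libraries, against 448, 182 and 163 CPM in the control libraries, with replicate 2 low in the co-cultivated group and replicate 1 high in the control group, as for AOS1.

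The named genes whose pattern over the 6 libraries came nearest to the mean pattern of the 5 synthesis genes were JAZ4, JAZ7, OPR4, LOX5 and JAZ6, at mean absolute differences of 0.09, 0.16, 0.165, 0.20 and 0.21 in log2 CPM. The 5 synthesis genes themselves lay 0.164 (JAR1) to 0.389 (AOS2) from that mean pattern. JAZ4 and JAZ7 were thus nearer to it than any of the 5 synthesis genes. JAZ4 stood at 242, 150.0 and 237 CPM in the co-cultivated libraries, against 153, 135 and 140 CPM in the control libraries. The 34 candidates were genes of the pathway lists used here and of the root and leaf markers, and no other named genes were ranked. A gene of those lists was therefore likely to come nearest whatever the values. Among all those 19672 loci the median difference was 0.48, and 247 loci (1.26%) were at least as near as JAZ6.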

How the data were processed

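The authors deposited estimated counts per locus, 1 column per library and not scaled between libraries; the submitters' processing notes name DESeq2 1.28.1 and, as genome build, IRGSP-1.0. Not given in the sources used here are the aligner, the counter and its strand setting. The deposited estimated counts were rounded and fitted with edgeR 4.0.16 in R 4.3.3 (filterByExpr, TMM, quasi-likelihood test, group as the single term, 4 residual degrees of freedom), with Benjamini-Hochberg adjustment over 24615 loci and a threshold of 0.05. The fit was run on counts simulated from its own estimates of level and spread, with no library set apart from its group. That run therefore does not cover data in which 1 library departs from its group. Whole counts had been assumed when the test was chosen. SE is the log2 fold change divided by the root of F. CPM carry TMM factors. Alternatives were DESeq2 1.42.0, limma-voom (limma 3.58.1), other scalings, filters, unrounded counts, a robust fit, a replicate block and each library left out; 0 columns were unmapped.

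The members and lists were chosen with earlier results of these data known. Names come from the RefSeq gene table of ASM3414082v1, matched to a locus by chromosome and order, after which 47 names passed; names that failed were dropped or corrected after the count table was opened, and LOX2, LOX5, OPR6 and the locus of MFP entered then. Of the planned lists, that of conjugation and turnover kept no name and was dropped, and that of beta-oxidation kept MFP alone. Coordinates are not printed, as the builds differ. No sequence was printed. In each list up to 3 genes with the smallest p were named, with the 5 nearest in pattern; others are named where a count needed it. Levels are not compared between genes, since transcript lengths were not used here; the ratio of AOS1 to AOS2 is compared between libraries alone.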

Additional observations from a re-analysis of the deposited data

How the results depend on the processing

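All 5 synthesis genes had positive log2 fold changes under every alternative run, and the single changed call among them was AOC under DESeq2 (0.63), which made the count of the 5 called 1. Under DESeq2 with its own filter, 1483 loci were called higher and 938 lower, of which 1435 and 915 were among the 24615 loci tested by edgeR; 7 of the other pathway genes were called in either direction. With a replicate block 0 of the other pathway genes were called. With 1 library left out, calls ran from 56 to 361 higher and from 83 to 493 lower over all loci, and from 0 to 3 among the other pathway genes. The lowest count of loci called higher was without co-cultivated replicate 1 (56), followed by that without control replicate 1 (65). MFP changed sign, from −0.145 to 0.345 over the fits without 1 library. The log2 ratio of AOS1 to AOS2, co-cultivated minus control, was 0.146 and ran from −0.326 to 0.694 over these fits, a comparison added after the data were seen. The causes of these differences were not tested.

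The labels do not say whether equal replicate numbers pair the samples. Deviations from the group means correlated across loci at 0.06, 0.15 and 0.17 for numbers 1, 2 and 3. Between unlike numbers the correlations ran from −0.20 to 0.08. The highest of these was between co-cultivated replicate 1 and control replicate 3, above that of co-cultivated replicate 1 with control replicate 1. These low values do not settle the pairing, so a fit with a replicate block is given beside the main fit. With the replicate block, 403 loci were called higher and 296 lower, and AOC stood at 0.61 (edgeR adjusted p = 0.0815). Pairs of libraries within a group differed by 21.7 to 113 times the sampling noise (chi-square per locus), so no pair was taken for repeat deposits of 1 library; this does not show that the samples are independent. Counting error, the single effect of depth worked out here, was at most 4.77%. It was below the spread between libraries for each of the 5 genes in both groups. Other effects of depth and library preparation were not tested.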
